A study of Saccharomyces cerevisiae with 10 samples.

Results

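The 9 genes described here encode components of the Ras and protein kinase A (PKA) pathway of budding yeast and the regulators of its stress response: RAS1, RAS2, CYR1, TPK2, TPK3, BCY1, MSN2, MSN4 and RIM15. They were taken by name, with earlier results of these data known. All 9 of 9 were found among the 5449 Saccharomyces cerevisiae genes of the array, with 1 probe set each. Messenger RNA of haploid cells was read on 10 arrays, 1 per culture, with n = 2 cultures in each of 5 genotypes. MKT1e carried the evolved allele of MKT1, whose product regulates mRNAs after transcription, and MDS3e that of MDS3, a gene of nutrient signalling. MDS3e MKT1e carried both, PMA1e MKT1e carried the evolved alleles of MKT1 and of PMA1, which encodes the plasma membrane proton pump, and Ancestral carried no evolved allele. All strains shared the genetic background Sce3044, were free of other evolved alleles and grew to an optical density of about 0.2, in about 17 h, in defined medium with 0.25% dextrose. The labels do not say whether a genotype was 1 clone, and no strain with the PMA1 allele by itself was analysed here.

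In yeast, glucose activates PKA through cyclic AMP. The small GTPases Ras1 and Ras2 stimulate the adenylate cyclase Cyr1, and the cyclic AMP it makes binds the regulatory subunit Bcy1 and releases the catalytic subunits, among them Tpk2 and Tpk3. Active PKA favours growth and holds back the kinase Rim15 and the transcription factors Msn2 and Msn4, which switch on stress genes when nutrients run low. Much of this control acts on the proteins, so mRNA levels describe only how much message of each component was present.

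Levels are given as the authors' normalized intensities and differences as log2 of the intensity plus 16, which slightly shrinks the changes of dim genes. Intensities of different genes are not compared, because each probe set has its own brightness. A gene is said to have changed where limma's moderated test over all 5449 genes gave a Benjamini-Hochberg adjusted p under 0.05, and each difference is given ± SE with 2 cultures per genotype. All members lay well above the background limit, an intensity of 2.33, and the lowest member value, that of RIM15 in an MDS3e MKT1e culture, was 56.2. The standard error of a difference between 2 genotypes ran from 0.05 to 0.08 among the members, against a median of 0.07 over all genes. Where cultures are said to lie apart, this describes the arrays and is no test, as 2 cultures can lie apart from 2 others at a very small difference. RIM15 in MDS3e lay below Ancestral in both cultures at -0.03 ± 0.06 (limma adjusted p = 0.774). The share of all genes whose cultures lie apart is not given here. Genes of mating type a were high on every array: the a-cell genes BAR1, MFA1, MFA2, STE2 and STE6 had intensities of at least 413, while those of the alpha-factor genes MF(ALPHA)1 and MF(ALPHA)2 were at most 6.66, of STE3 at most 31.9 and of SAG1 at most 88.5. Because array values are relative within a culture's RNA, less message per cell and a different make-up of the RNA cannot be told apart.

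RAS1, one of the pair of Ras GTPase genes, was higher in every strain with the evolved MKT1 allele. Its intensities were 271 and 287 in MKT1e, 263 and 261 in MDS3e MKT1e, and 262 and 268 in PMA1e MKT1e, against 224 and 229.6 in MDS3e and 226 and 229.9 in Ancestral. The 6 cultures with the allele all lay above the 4 without it. RAS1 rose by 0.28 ± 0.05 in MKT1e against Ancestral (limma adjusted p = 0.0041). The MDS3e MKT1e strain was 0.19 ± 0.05 above Ancestral (adjusted p = 0.017), and the PMA1e MKT1e strain was 0.20 ± 0.05 above it (adjusted p = 0.019). In MDS3e MKT1e against MDS3e, a comparison that shares no array with that of MKT1e against Ancestral, it rose by 0.19 ± 0.05 (adjusted p = 0.0283). In MDS3e itself RAS1 differed from Ancestral by -0.01 ± 0.05 (95% interval -0.12 to 0.11, adjusted p = 0.946).

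The rise of RAS1 in MKT1e was called whichever of the 10 arrays was left out, with values from 0.23 to 0.31 over all alternatives. The other RAS1 calls were less steady. After median centring of the arrays the difference was 0.10 in MDS3e MKT1e (adjusted p = 0.191) and 0.15 in PMA1e MKT1e (adjusted p = 0.0982), both against Ancestral, and 0.17 in MDS3e MKT1e against MDS3e (adjusted p = 0.0778). The call in MDS3e MKT1e against Ancestral was lost without Ancestral replicate 1 (0.18, adjusted p = 0.0542), MDS3e MKT1e replicate 1 (0.18, adjusted p = 0.0706) or MDS3e MKT1e replicate 2 (0.19, adjusted p = 0.0609). In PMA1e MKT1e it was lost without PMA1e MKT1e replicate 1 (0.22, adjusted p = 0.0677), PMA1e MKT1e replicate 2 (0.19, adjusted p = 0.124) or Ancestral replicate 1 (0.19, adjusted p = 0.0701). The call against MDS3e was lost when any of its own 4 arrays was left out, with adjusted p from 0.0913 to 0.149 and values from 0.18 to 0.21.

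RAS2, the other Ras GTPase gene, followed a different order of genotypes. Its intensities were 879 and 924 in MKT1e, 811 and 821 in MDS3e, 804 and 806 in MDS3e MKT1e, 897 and 903 in PMA1e MKT1e, and 849.8 and 939 in Ancestral. All 4 cultures with the evolved MDS3 allele lay below the 6 others. The differences did not pass the test: the RAS2 value of MDS3e minus Ancestral was -0.13 ± 0.06 (adjusted p = 0.144). For MDS3e MKT1e it was -0.15 ± 0.06 relative to Ancestral (adjusted p = 0.0743) and -0.16 ± 0.06 relative to MKT1e (adjusted p = 0.0722). The Ancestral arrays decided much of the first value, which was -0.20 without Ancestral replicate 1 (adjusted p = 0.0399) and -0.06 without Ancestral replicate 2 (adjusted p = 0.574). For the second, the values were -0.22 without Ancestral replicate 1 (adjusted p = 0.0202) and -0.08 without Ancestral replicate 2 (adjusted p = 0.38). After median centring RAS2 passed in MDS3e MKT1e, at -0.23 against Ancestral (adjusted p = 0.0196) and at -0.22 against MKT1e (adjusted p = 0.0349), and the value against MKT1e, still -0.16, also passed without either Ancestral replicate (adjusted p = 0.037).

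**Figure D1:**
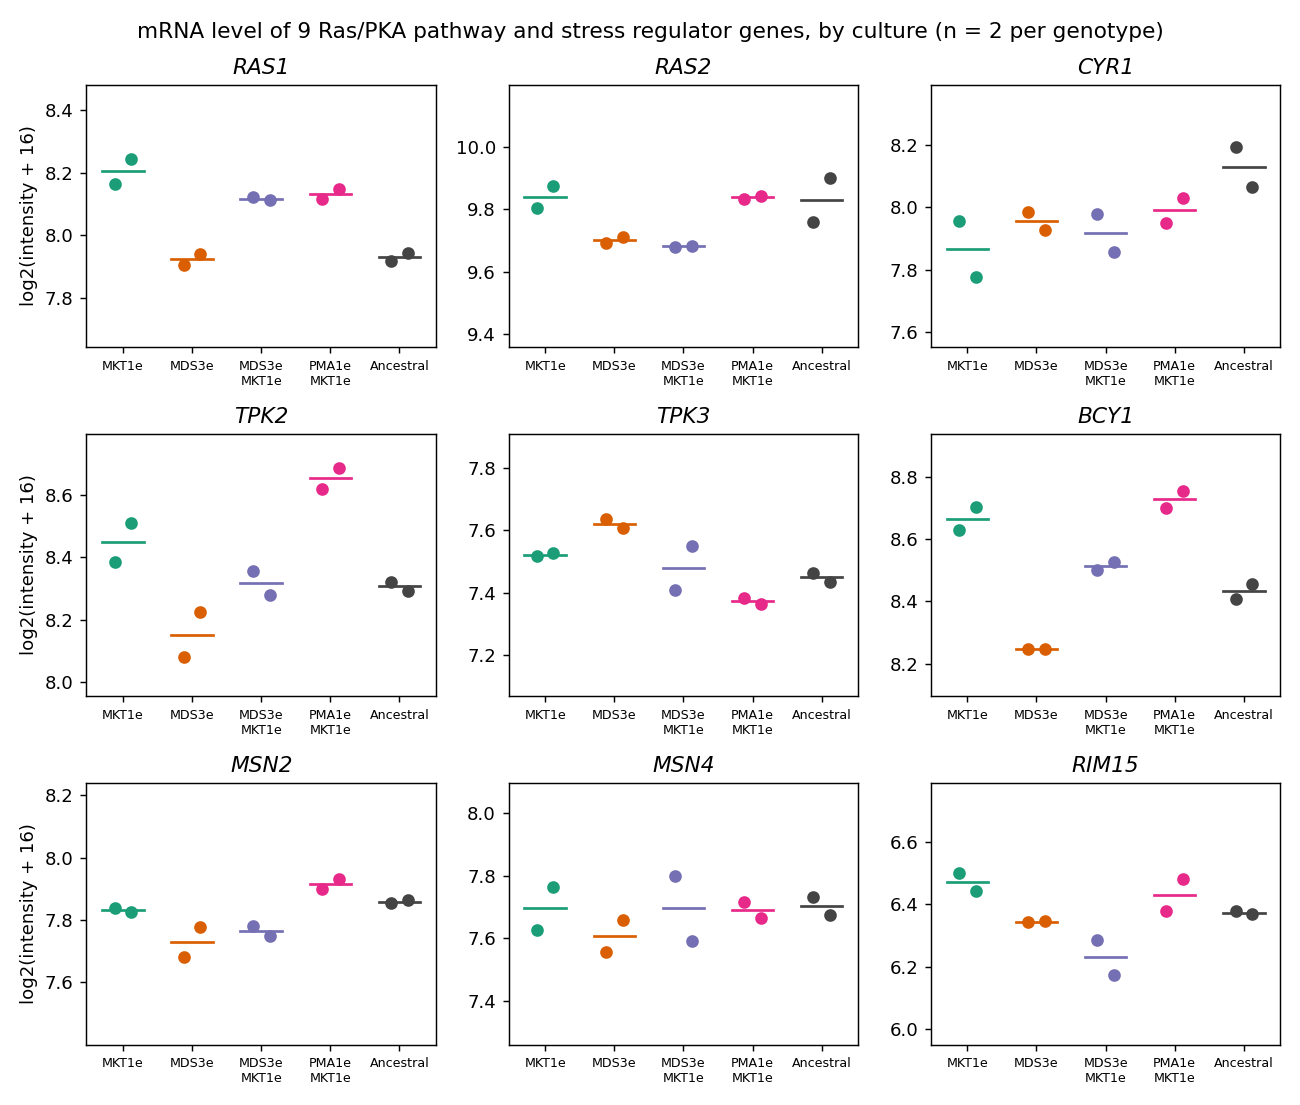
Level of each of the 9 genes as log2 of intensity plus 16 (vertical axis, the same span in every panel) in each culture (points) and as the mean of a genotype (lines, n = 2). RAS1 is high in the 3 strains with the evolved MKT1 allele, BCY1 and TPK2 are lowest in MDS3e and highest in PMA1e MKT1e, and MSN4 differs little beyond the spread of its replicates.

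CYR1, the adenylate cyclase gene, had its highest values in Ancestral and passed the test only in MKT1e. Its intensities were 232 and 204 in MKT1e, 237 and 227 in MDS3e, 237 and 216 in MDS3e MKT1e, and 231 and 246 in PMA1e MKT1e, against 277 and 252 in Ancestral. Both Ancestral cultures lay above all 8 others. CYR1 fell by 0.26 ± 0.08 in MKT1e against Ancestral (limma adjusted p = 0.0358). Its difference was -0.17 ± 0.08 in MDS3e (adjusted p = 0.125), -0.21 ± 0.08 in MDS3e MKT1e (adjusted p = 0.0514) and -0.14 ± 0.08 in PMA1e MKT1e (adjusted p = 0.232). Replicates spread widely for this gene, with an SD of 0.13 in MKT1e and 0.09 in Ancestral on the log2 scale. The call in MKT1e was lost in 6 of the 10 fits that left out an array. Without MKT1e replicate 2 the value was -0.17 (adjusted p = 0.227) and without Ancestral replicate 1 it was -0.20 (adjusted p = 0.173), while without either PMA1e MKT1e replicate (adjusted p = 0.0502) or either MDS3e replicate (adjusted p = 0.0528) it stayed at -0.26. In MDS3e MKT1e it passed after median centring, at -0.29 (adjusted p = 0.00639), and quantile normalization, at -0.30 (adjusted p = 0.00848), and without Ancestral replicate 2, at -0.27 (adjusted p = 0.043). With its value at -0.21 it passed without either MKT1e replicate (adjusted p = 0.0381), with a replicate block (adjusted p = 0.0353) and with trended and robust variances (adjusted p = 0.0446), and at -0.18 it passed with a pseudocount of 64 (adjusted p = 0.0489). In MDS3e it passed after median centring, at -0.23 (adjusted p = 0.0346), and quantile normalization, at -0.22 (adjusted p = 0.0491). With the evolved MDS3 allele present, adding MKT1e changed CYR1 by -0.04 ± 0.08 (95% interval -0.21 to 0.13, adjusted p = 0.792).

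BCY1, which encodes the inhibitory regulatory subunit of PKA, had one of the widest ranges among the members and moved one way with MKT1e and the other way with MDS3e. Its intensities were 379.9 and 400.2 in MKT1e, 288 and 288 in MDS3e, 346 and 353 in MDS3e MKT1e, and 399.9 and 416 in PMA1e MKT1e, against 324 and 335 in Ancestral. The cultures of every genotype lay apart from those of Ancestral, MDS3e below and the 3 strains with MKT1e above. Relative to Ancestral, BCY1 rose by 0.23 ± 0.05 in MKT1e (limma adjusted p = 0.0117), rose by 0.29 ± 0.05 in PMA1e MKT1e (adjusted p = 0.00276), and fell by 0.19 ± 0.05 in MDS3e (adjusted p = 0.0301). In MDS3e MKT1e the difference from Ancestral was 0.08 ± 0.05 (95% interval -0.04 to 0.20, adjusted p = 0.263).

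The factorial part of the design splits this value for BCY1. Adding MKT1e to MDS3e raised BCY1 by 0.27 ± 0.05 (adjusted p = 0.00653), next to 0.23 without the MDS3 allele. Adding MDS3e to MKT1e gave -0.15 ± 0.05 (adjusted p = 0.0585), next to -0.19 without the MKT1 allele, and passed after median centring at -0.22 (adjusted p = 0.0252) and quantile normalization at -0.21 (adjusted p = 0.0197). The interaction of the alleles was 0.03 ± 0.07 (95% interval -0.13 to 0.20, adjusted p = 0.973). In order of mean level the genotypes ran PMA1e MKT1e, MKT1e, MDS3e MKT1e, Ancestral and MDS3e. Between neighbours in that order, PMA1e MKT1e and MKT1e overlapped, and only MDS3e and Ancestral differed at an adjusted p under 0.05.

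The rises of BCY1 in PMA1e MKT1e and in MDS3e MKT1e against MDS3e were called under all 20 alternatives. The rise in MKT1e was lost without Ancestral replicate 1 (0.21, adjusted p = 0.0575) or MKT1e replicate 2 (0.20, adjusted p = 0.0853), and with only the compared genotypes in the fit (adjusted p = 0.0784). The fall in MDS3e was lost without Ancestral replicate 2 (-0.16, adjusted p = 0.121), MDS3e replicate 1 (-0.19, adjusted p = 0.12) or MDS3e replicate 2 (-0.18, adjusted p = 0.116). It was lost as well with only the compared genotypes in the fit (adjusted p = 0.0883).

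TPK2, a catalytic subunit gene of PKA, was highest where the evolved PMA1 and MKT1 alleles were combined. Its intensities were 318 and 349 in MKT1e, 255 and 283 in MDS3e, 312 and 295 in MDS3e MKT1e, and 378 and 396 in PMA1e MKT1e, against 304 and 298 in Ancestral. Both PMA1e MKT1e cultures lay above all 8 others, and both MDS3e cultures lay below them. TPK2 rose by 0.35 ± 0.07 in PMA1e MKT1e against Ancestral (limma adjusted p = 0.00475), the widest difference from Ancestral of any member, and was called under all 20 alternatives. The differences from Ancestral in the other strains did not pass: 0.14 ± 0.07 in MKT1e (adjusted p = 0.174), -0.15 ± 0.07 in MDS3e (adjusted p = 0.126) and 0.01 ± 0.07 in MDS3e MKT1e (adjusted p = 0.906). Against MKT1e, TPK2 in PMA1e MKT1e differed by 0.21 ± 0.07, with an unadjusted p = 0.0126 and an adjusted p = 0.358.

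TPK3 encodes another catalytic subunit. In MDS3e and PMA1e MKT1e its mean lay on the other side of Ancestral from that of TPK2. In MKT1e and MDS3e MKT1e the means of both genes lay above Ancestral. The intensities of TPK3 were 167 and 168 in MKT1e, 183 and 179 in MDS3e, 154 and 172 in MDS3e MKT1e, and 151 and 149 in PMA1e MKT1e, against 160.5 and 157 in Ancestral. The MDS3e cultures lay above all 8 others, and the PMA1e MKT1e cultures lay below all 8 others. TPK3 differed among the 5 genotypes by limma's F-test (adjusted p = 0.0341), but none of the 7 pairs of genotypes compared passed. Its difference from Ancestral was 0.17 ± 0.06 in MDS3e (adjusted p = 0.0526), 0.07 ± 0.06 in MKT1e (adjusted p = 0.415), 0.03 ± 0.06 in MDS3e MKT1e (adjusted p = 0.718) and -0.08 ± 0.06 in PMA1e MKT1e (adjusted p = 0.404). The value in MDS3e passed without MDS3e MKT1e replicate 1 or 2 (0.17, adjusted p = 0.0389) and with a pseudocount of 64 (0.14, adjusted p = 0.0408). Across the 10 arrays, TPK2 and BCY1 had a Pearson r of 0.91 and a Spearman rho of 0.89, whereas TPK2 and TPK3 had an r of -0.77 and a rho of -0.79. These were the values of 2 of 36 pairs of members, and replicate arrays share a strain, so they describe the arrays and carry no test.

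**Figure D2:**
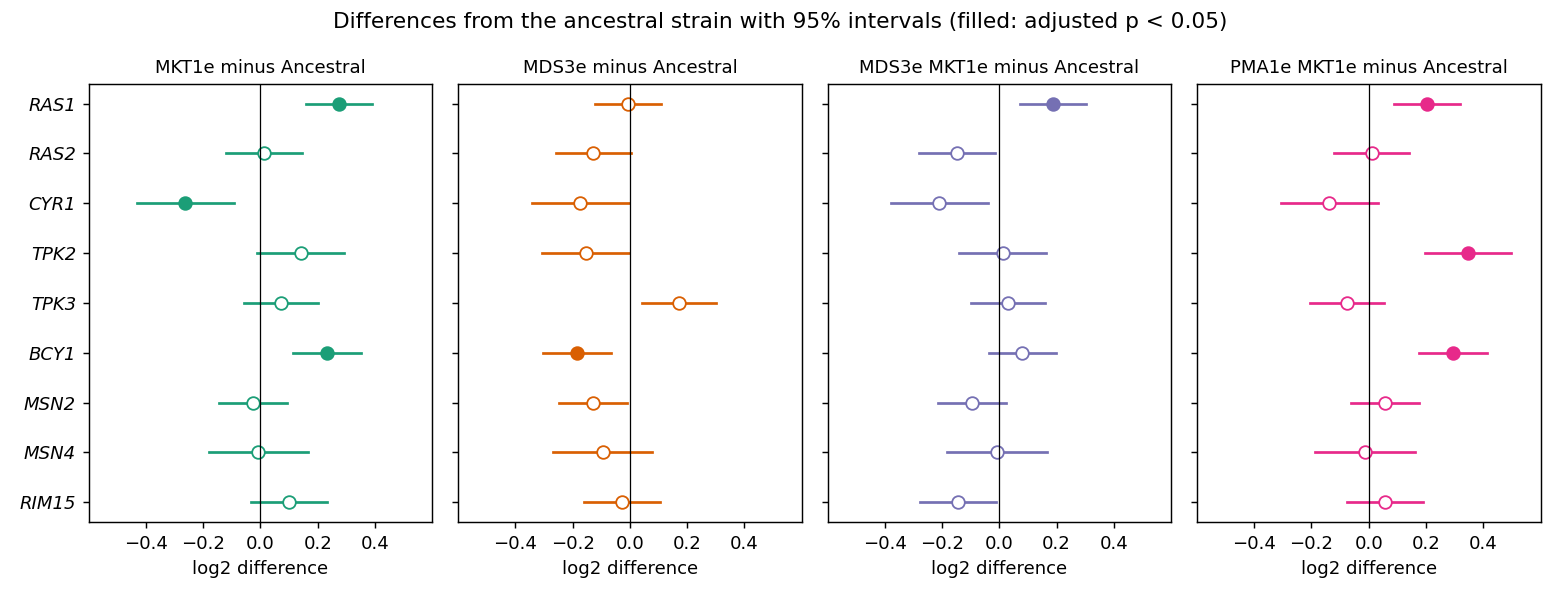
Log2 difference from Ancestral (horizontal axis) of each of the 9 genes in each of 4 strains, with 95% intervals from the pooled fit (n = 2 per genotype). Filled points passed an adjusted p under 0.05: RAS1, BCY1 and CYR1 in MKT1e, BCY1 in MDS3e, RAS1 in MDS3e MKT1e, and TPK2, BCY1 and RAS1 in PMA1e MKT1e.

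RIM15, the kinase gene that PKA restrains, was lowest where MDS3e and MKT1e were combined. Its intensities were 74.6 and 71.0 in MKT1e, 65.2 and 65.5 in MDS3e, 62.1 and 56.2 in MDS3e MKT1e, and 67.2 and 73.4 in PMA1e MKT1e, against 67.2 and 66.7 in Ancestral. Both MDS3e MKT1e cultures lay below all 8 others. Against MKT1e, RIM15 fell by 0.24 ± 0.06 in MDS3e MKT1e (limma adjusted p = 0.0153), the only call for this gene. Its difference from Ancestral was -0.14 ± 0.06 in MDS3e MKT1e (adjusted p = 0.085), 0.10 ± 0.06 in MKT1e (adjusted p = 0.279), -0.03 ± 0.06 in MDS3e (adjusted p = 0.774) and 0.06 ± 0.06 in PMA1e MKT1e (adjusted p = 0.551). The interaction of the alleles was -0.21 ± 0.08 for RIM15, with an unadjusted p = 0.0299 and an adjusted p = 0.594. The call was lost without MKT1e replicate 1 (-0.21, adjusted p = 0.0746), MKT1e replicate 2 (-0.27, adjusted p = 0.0535) or MDS3e MKT1e replicate 2 (-0.18, adjusted p = 0.112), and the value shrank to -0.15 with a pseudocount of 64 (adjusted p = 0.0218). Against Ancestral, RIM15 in MDS3e MKT1e passed after median centring, at -0.23 (adjusted p = 0.0133), and quantile normalization, at -0.19 (adjusted p = 0.0316).

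MSN2 and MSN4 encode related zinc finger activators of stress genes, and neither passed in any of the 7 pairs of genotypes tested. MSN2 had intensities of 213 and 211 in MKT1e, 189 and 203 in MDS3e, 204 and 199 in MDS3e MKT1e, and 223 and 228 in PMA1e MKT1e, against 215 and 217 in Ancestral. The 4 cultures with the evolved MDS3 allele lay below the 6 others. The difference of MSN2 from Ancestral was -0.13 ± 0.05 in MDS3e (95% interval -0.25 to -0.01, adjusted p = 0.103), -0.09 ± 0.05 in MDS3e MKT1e (adjusted p = 0.191), -0.03 ± 0.05 in MKT1e (adjusted p = 0.763) and 0.06 ± 0.05 in PMA1e MKT1e (adjusted p = 0.503). After median centring MSN2 passed in MDS3e at -0.19 (adjusted p = 0.0406) and in MDS3e MKT1e at -0.18 (adjusted p = 0.0321), so its call depends on how the arrays are scaled.

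MSN4 had intensities of 182 and 201 in MKT1e, 172 and 186 in MDS3e, 207 and 177 in MDS3e MKT1e, and 194 and 187 in PMA1e MKT1e, against 197 and 188 in Ancestral. Of the 7 pairs of genotypes tested, only MDS3e and Ancestral did not overlap. The MDS3e strain differed from Ancestral by -0.10 ± 0.08 (limma adjusted p = 0.407), and the 3 strains with MKT1e each by -0.01 ± 0.08 (adjusted p from 0.928 to 0.961). The 95% intervals of these 4 differences reached from -0.27 to 0.17. MSN4 had the smallest range of genotype means among the members, 0.10, and 6.06% of all genes had a smaller one. When the 5 genotypes were put in order of mean level for each member, 2 of the 36 neighbouring pairs passed the test, RAS1 in MDS3e MKT1e over Ancestral and BCY1 in MDS3e under Ancestral. The share of such pairs that passed over all genes is not given here.

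By the F-test 5 of the 9 members differed among the genotypes (RAS1, TPK2, TPK3, BCY1 and RIM15), and so did 55.0% of all genes. After median centring 8 of the 9 passed, and 3 passed without PMA1e MKT1e replicate 2, MKT1e replicate 2, MDS3e replicate 1 or MDS3e replicate 2. In MKT1e against Ancestral 2 members rose and 1 fell, where 11.8% of all genes rose and 8.48% fell. In MDS3e against Ancestral none rose and 1 fell, where 14.5% of all genes rose and 10.7% fell. At an unadjusted p under 0.05, limma had 1 member higher and 4 lower there, and 1207 of all 5449 genes higher and 864 lower. In MDS3e MKT1e against Ancestral 1 member rose and none fell, where 21.9% of all genes rose and 16.7% fell. At an unadjusted p under 0.05 limma had 1 member higher and 3 lower, and 1453 of all 5449 genes higher and 1116 lower. In PMA1e MKT1e against Ancestral 3 rose and none fell, where 14.3% of all genes rose and 7.32% fell. Limma gave the same member counts at an unadjusted p under 0.05, where 1112 of all 5449 genes were higher and 735 lower. The 9 members had a median difference from Ancestral of 0.07 in MKT1e, where that of all genes was -0.01, and of -0.13 in MDS3e, where that of all genes was 0.03. It was -0.01 in MDS3e MKT1e and 0.06 in PMA1e MKT1e, where that of all genes was 0.03 and 0.01. The scaling of the arrays moved the balance of calls over all genes: MKT1e had 642 higher and 462 lower than Ancestral (582 and 637 after median centring), and MDS3e had 790 higher and 585 lower (504 and 845). MDS3e MKT1e had 1196 higher and 911 lower (785 and 1423), and PMA1e MKT1e had 778 higher and 399 lower (587 and 782). Single arrays moved these counts too: 210 were lower in MKT1e without MKT1e replicate 2 and 247 without Ancestral replicate 1. In MDS3e, 288 were higher and 266 lower without MDS3e replicate 1, 319 and 304 without MDS3e replicate 2, and 376 and 373 without Ancestral replicate 2. In MDS3e MKT1e, 604 were lower without MDS3e MKT1e replicate 2. In PMA1e MKT1e, 488 were higher and 134 lower without PMA1e MKT1e replicate 2, and 206 and 240 were lower without PMA1e MKT1e replicate 1 and Ancestral replicate 1.

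With the other allele present, 2 members rose and none fell in MDS3e MKT1e against MDS3e, where 11.0% of all genes rose and 6.24% fell. At an unadjusted p under 0.05 limma had 3 members higher and 1 lower, and 901 of all 5449 genes higher and 770 lower. In MDS3e MKT1e against MKT1e none rose and 1 fell, where 15.0% of all genes rose and 11.5% fell. At an unadjusted p under 0.05 limma had 0 members higher and 3 lower, and 1277 of all 5449 genes higher and 888 lower. Over all genes, 597 rose and 340 fell against MDS3e (515 and 489 after median centring), and 815 rose and 625 fell against MKT1e (465 and 912 after median centring). Against MDS3e, 380 rose and 151 fell without MDS3e replicate 1, 329 and 132 without MDS3e replicate 2, and 374 and 172 without MDS3e MKT1e replicate 1, and 212 fell without MDS3e MKT1e replicate 2. Against MKT1e, 250 rose and 293 fell without MKT1e replicate 2, 356 and 344 without MDS3e MKT1e replicate 2, and 449 rose without MDS3e MKT1e replicate 1. In PMA1e MKT1e against MKT1e limma called no member, with 1 higher (TPK2) and 1 lower (TPK3) at an unadjusted p under 0.05. Of all 5449 genes, limma had 417 higher and 120 lower there at the same unadjusted p. At an adjusted p under 0.05, 0% of all genes rose and 0.0184%, a single gene, fell. The interaction of MDS3e and MKT1e was called for no member, where 0.0734% of all genes were called above and 0.312% below 0. At an unadjusted p under 0.05, limma had 2 members below 0 (TPK3 and RIM15), and 174 of all 5449 genes above and 213 below 0. The share of all genes whose calls were kept with each array left out is not given here. Across the 7 pairs of genotypes limma made 11 calls of members, with the shares of all genes given above pair by pair. Of these, 4 were kept in every fit that left out 1 array: RAS1 in MKT1e, TPK2 and BCY1 in PMA1e MKT1e, each against Ancestral, and BCY1 in MDS3e MKT1e against MDS3e.

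The effect of the evolved MKT1 allele could be set side by side in 2 backgrounds that share no arrays. RAS1, BCY1 and TPK2 were higher with the allele in both, by 0.28 and 0.19, 0.23 and 0.27, and 0.14 and 0.17 in the ancestral and the MDS3e background, although TPK2 passed in neither (adjusted p = 0.174 and 0.128). TPK3 and RIM15 had opposite signs, 0.07 and -0.14 for TPK3 and 0.10 and -0.11 for RIM15, and none of these 4 values passed the test. The interaction was -0.21 ± 0.08 for TPK3 (unadjusted p = 0.0255, adjusted p = 0.583) and 0.23 ± 0.11 for CYR1 (unadjusted p = 0.0625, adjusted p = 0.761).

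**Figure D3:**
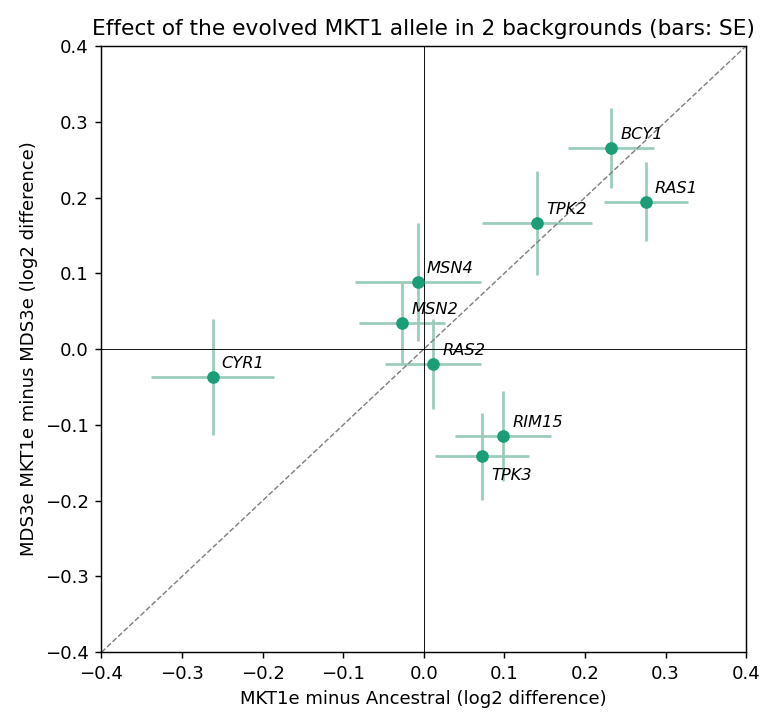
Log2 difference made by the evolved MKT1 allele in the ancestral background (horizontal axis) and with the evolved MDS3 allele present (vertical axis), with SE bars, for the 9 genes. RAS1, BCY1 and TPK2 lie near the dashed line of equal effect, while TPK3, RIM15 and CYR1 lie off it by 0.21 to 0.23 without passing the interaction test.

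Around the members, 26 other genes of the same network were measured. By the F-test 14 of the 26 differed among the genotypes, and so did 55.0% of all genes. In MKT1e against Ancestral 2 rose, 2 fell and 22 did not pass, where 11.8% of all genes rose and 8.48% fell. SRV2, whose product binds adenylate cyclase and actin, fell by 0.29 ± 0.05 (limma adjusted p = 0.00369), and SCH9, a growth kinase that acts beside PKA, rose by 0.30 ± 0.06 (adjusted p = 0.00702). The high-affinity cyclic AMP phosphodiesterase gene PDE2 rose by 0.20 ± 0.05 (adjusted p = 0.0288), and the glucose receptor gene GPR1 fell by 0.19 ± 0.06 (adjusted p = 0.0409). Only the SRV2 call was kept in all 10 fits that left out an array. SCH9 was lost without MKT1e replicate 1 (0.26, adjusted p = 0.0527), PDE2 without MKT1e replicate 1 (0.15, adjusted p = 0.163) or Ancestral replicate 2 (0.17, adjusted p = 0.0901), and GPR1 in 8 of the 10 (all except those without either MDS3e MKT1e replicate), with values from -0.23 to -0.16.

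In MDS3e against Ancestral 1 of the 26 genes rose, 9 fell and 16 did not pass, where 14.5% of all genes rose and 10.7% fell. GPA2, the G protein partner of the glucose receptor, fell by 0.33 ± 0.05 (limma adjusted p = 0.00186), WHI2, a stress response cofactor, fell by 0.31 ± 0.07 (adjusted p = 0.00881), and the 14-3-3 protein gene BMH2 fell by 0.29 ± 0.06 (adjusted p = 0.00881). SOK2, a transcription factor gene of the PKA network, rose by 0.28 ± 0.07 (adjusted p = 0.0155). The median difference of the 26 was -0.08, against 0.03 over all genes. GPA2 was called under all 20 alternatives. WHI2 was lost without MDS3e replicate 1 (-0.26, adjusted p = 0.0741), BMH2 without MDS3e replicate 2 (-0.28, adjusted p = 0.057) and after quantile normalization (-0.21, adjusted p = 0.0544), and SOK2 without Ancestral replicate 2 (0.26, adjusted p = 0.0658), MDS3e replicate 1 (0.30, adjusted p = 0.0615) or MDS3e replicate 2 (0.26, adjusted p = 0.0875). Without MDS3e replicate 1, 4 of the 26 fell, and without MDS3e replicate 2, 5 fell.

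In MDS3e MKT1e against Ancestral 4 of the 26 genes rose, 7 fell and 15 did not pass, where 21.9% of all genes rose and 16.7% fell. BMH2 fell by 0.42 ± 0.06 (limma adjusted p = 0.000593), IRA1, a GTPase activator that switches Ras off, fell by 0.33 ± 0.05 (adjusted p = 0.00114), and GPA2 fell by 0.32 ± 0.05 (adjusted p = 0.000843). PDE2 rose by 0.35 ± 0.05 (adjusted p = 0.000766), and these 4 calls were kept under all 20 alternatives. SHR5, which takes part in the lipid modification of Ras, rose by 0.20 ± 0.07 (adjusted p = 0.0389) and SCH9 by 0.19 ± 0.06 (adjusted p = 0.0322), but after median centring their differences were 0.12 (adjusted p = 0.205) and 0.11 (adjusted p = 0.178). Median centring left 1 of the 26 higher and 12 lower. SHR5 was lost without any array of these 2 genotypes or of PMA1e MKT1e (0.18 to 0.23, adjusted p from 0.0574 to 0.16), and SCH9 without Ancestral replicate 2 (0.15, adjusted p = 0.149) or MDS3e MKT1e replicate 2 (0.13, adjusted p = 0.201).

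In PMA1e MKT1e against Ancestral 3 of the 26 genes rose, 1 fell and 22 did not pass, where 14.3% of all genes rose and 7.32% fell. SRV2 fell by 0.26 ± 0.05 (limma adjusted p = 0.00591). YAK1, a kinase gene that opposes PKA in growth control, rose by 0.24 ± 0.07 (adjusted p = 0.0356), PDE2 by 0.22 ± 0.05 (adjusted p = 0.0159) and SHR5 by 0.22 ± 0.07 (adjusted p = 0.0486). Each was lost with some array left out. SRV2 was lost only without PMA1e MKT1e replicate 1 (-0.24, adjusted p = 0.0529). YAK1 and PDE2 were lost without PMA1e MKT1e replicate 1 (0.27, adjusted p = 0.0889, and 0.24, adjusted p = 0.0588), PMA1e MKT1e replicate 2 (0.21, adjusted p = 0.187, and 0.20, adjusted p = 0.109) or Ancestral replicate 2 (0.19, adjusted p = 0.135, and 0.19, adjusted p = 0.0597). SHR5 was lost in 8 of 10 such fits (all except those without either MDS3e replicate), with values from 0.20 to 0.23. After median centring YAK1 was at 0.19 (adjusted p = 0.0883) and SHR5 at 0.16 (adjusted p = 0.128), after quantile normalization they were at 0.20 (adjusted p = 0.0611) and 0.16 (adjusted p = 0.146), and 1 of the 26 rose under either scaling. With a replicate block SHR5 had an adjusted p = 0.059. In MDS3e MKT1e, 11.0% of all genes rose and 6.24% fell against MDS3e, and 15.0% rose and 11.5% fell against MKT1e. In the same strain 1 of the 26 rose and 1 fell against MDS3e, and 2 rose and 5 fell against MKT1e. Of the last, 1 rose and 9 fell after median centring, 2 fell without MKT1e replicate 2, and 3 fell without MDS3e MKT1e replicate 2.

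The differences of MSN2 and MSN4 were set beside those of genes their products are known to activate. Of 25 Msn2 and Msn4 target genes, 23 fell, none rose and 2 did not pass in MDS3e against Ancestral. There 10.7% of all genes fell and 14.5% rose. At an unadjusted p under 0.05 limma had 0 of the 25 higher and 24 lower, and 1207 of all 5449 genes higher and 864 lower. Their median difference was -0.64, against 0.03 over all genes. YGP1, a glycoprotein gene of nutrient limitation, fell by 1.81 ± 0.08 (adjusted p = 1.39e-06) and DDR2, a stress gene, fell by 1.61 ± 0.08 (adjusted p = 1.39e-06), where MSN2 and MSN4 differed by -0.13 and -0.10. In MDS3e MKT1e against Ancestral 21 fell and 1 rose, where 16.7% of all genes fell and 21.9% rose. The median of the 25 was -0.56, against 0.03 over all genes. DDR2 fell by 1.25 ± 0.08 (adjusted p = 1.67e-06) and TFS1, an inhibitor of carboxypeptidase Y, fell by 1.01 ± 0.07 (adjusted p = 3.69e-06), whereas the mitochondrial superoxide dismutase gene SOD2 rose by 0.22 ± 0.06 (adjusted p = 0.0188). The SOD2 call was lost after median centring (0.14, adjusted p = 0.152) and without Ancestral replicate 1 (0.17, adjusted p = 0.094), MDS3e MKT1e replicate 1 (0.20, adjusted p = 0.0911) or MDS3e MKT1e replicate 2 (0.24, adjusted p = 0.0539).

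In PMA1e MKT1e against Ancestral 12 of the 25 target genes rose and none fell, where 14.3% of all genes rose and 7.32% fell. At an unadjusted p under 0.05 limma also had 12 of the 25 higher and none lower, and 1112 of all 5449 genes higher and 735 lower. The median of the 25 was 0.12, against 0.01 over all genes. HSP26, which encodes a small heat shock protein, rose by 1.44 ± 0.12 (adjusted p = 1.82e-05) and the catalase gene CTT1 by 1.35 ± 0.09 (adjusted p = 5.48e-06), where MSN2 and MSN4 differed by 0.06 and -0.01. Without PMA1e MKT1e replicate 2 the count of risers was 7. In MKT1e against Ancestral 7 rose and none fell, where 11.8% of all genes rose and 8.48% fell. At an unadjusted p under 0.05 limma had 9 of the 25 higher and 0 lower, and 959 of all 5449 genes higher and 917 lower. The median of the 25 was 0.06, against -0.01 over all genes. HSP26 and CTT1 were higher by 1.15 ± 0.12 and 1.10 ± 0.09. These comparisons share the Ancestral arrays. Of all genes, 11.0% rose and 6.24% fell on adding MKT1e to MDS3e, and 15.0% rose and 11.5% fell on adding MDS3e to MKT1e. At an unadjusted p under 0.05 limma had 901 of all 5449 genes higher and 770 lower on adding MKT1e to MDS3e. On adding MDS3e to MKT1e it had 1277 higher and 888 lower. Adding MKT1e to MDS3e raised 8 of the 25 and lowered none (limma; 8 higher and 1 lower at an unadjusted p under 0.05), with 5 risers without MDS3e replicate 1, MDS3e replicate 2 or MDS3e MKT1e replicate 1, and adding MDS3e to MKT1e lowered 22 and raised none (0 higher and 23 lower at an unadjusted p under 0.05).

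**Figure D4:**
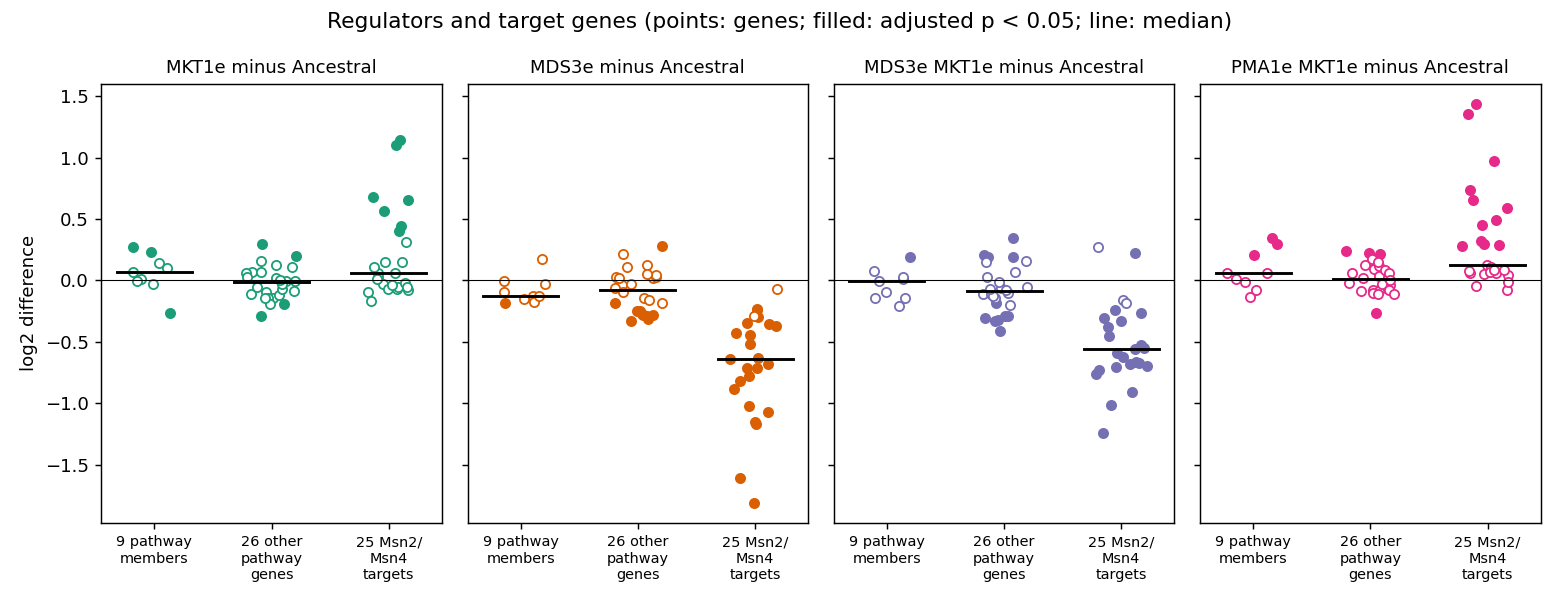
Log2 difference from Ancestral (vertical axis) in each of 4 strains for the 9 pathway members, 26 other pathway genes and 25 Msn2 and Msn4 target genes. Each point is a gene, filled where adjusted p was under 0.05, and lines are medians. In MDS3e the targets have a median of -0.64, while the members lie between -0.19 and 0.17.

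For the 5 members that passed the F-test, the genes with the most similar profile over the 10 arrays were listed by Pearson r among 5343 genes above background. The closest to RAS1 were CLD1, a mitochondrial cardiolipin phospholipase gene (r = 0.99), IMG1, of the mitochondrial ribosome (r = 0.98), and AGA1, of the mating agglutinin (r = 0.98). For BCY1 they were ACH1, a mitochondrial CoA transferase gene (r = 0.99), VNX1, a vacuolar cation exchanger gene (r = 0.99), and MCR1, a mitochondrial cytochrome b5 reductase gene (r = 0.99). For TPK2 they were SPR6, MHP1 and GIS3 (r = 0.97, 0.96 and 0.96), for TPK3 BRE5, CPT1 and PRM5 (r = 0.93, 0.91 and 0.91), and for RIM15 DPM1, YBL112C and YDL199C (r = 0.92, 0.89 and 0.88). Each r is the highest of 5343 over 10 arrays in 5 pairs of replicates, so it describes the arrays and carries no test.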

How the data were processed

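Total RNA of 10 log-phase cultures was labelled with biotin and hybridised to Affymetrix arrays, per the labels. The deposited values are linear intensities normalized by the authors with Affymetrix Expression Console, per the submitters' processing notes, whose algorithm and version the sources used here do not state. Of 10928 probe sets, 5498 named 1 S. cerevisiae gene, and the brightest probe set stood for each of 5449 genes. The 9 members were matched by symbol, and none of their probe sets has a shared-probe name. The deposited intensities were put on the scale log2(intensity + 16), with no further scaling. One mean per genotype was fitted over all 10 arrays with limma 3.58.1 in R 4.3.3, and p-values were adjusted over all genes by the Benjamini-Hochberg method. The fit was tested on simulated data, where it recovered 73.6% of the 1.3-fold changes put into MKT1e. The widest difference of a member from Ancestral was 1.27-fold, so this is not the rate for the members. Each run changed 200 genes, where the data had 642 higher and 462 lower in MKT1e against Ancestral. Background was limited at the 95th percentile of the values of probe sets of another species.

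Members, gene lists and tests were chosen with earlier results of these data known. All members are described; in each comparison with Ancestral, up to 3 other pathway genes and up to 2 targets are named in each direction, those with the largest change among the genes called. The 3 genes closest in profile to each member that passed the F-test are named too. Replicates are labelled as biological. The p-values rest on the spread between replicate cultures, pooled over all genotypes in the fit and moderated over all genes. With 2 cultures per strain, the number of arrays limits the precision. Alternatives were other scalings (median centring, quantile), pseudocounts, gene filters, fits and each array left out.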

Additional observations from a re-analysis of the deposited data

How the results depend on the processing

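No call of a named gene changed sign under any alternative, but median centring turned the balance of higher and lower calls over all genes in the 4 comparisons with Ancestral and in MDS3e MKT1e against MKT1e. Against Ancestral, 3 members were called in MKT1e, 3 in PMA1e MKT1e, and 1 each in MDS3e and MDS3e MKT1e; there were 2 in MDS3e MKT1e against MDS3e, 1 in MDS3e MKT1e against MKT1e and 5 by the F-test. Median centring gave 3 in MDS3e, 4 in MDS3e MKT1e, 1 against MDS3e, 3 against MKT1e and 8 by the F-test. Quantile normalization gave 3, 3, 1, 2 and 8 in the same order. A pseudocount of 64 gave 2 in MDS3e, 3 in MDS3e MKT1e and 3 against MKT1e. With only the compared genotypes in the fit there was 1 in MKT1e, and 0 in MDS3e and in MDS3e MKT1e, where fewer arrays estimate the spread. Trended and robust variances gave 2 in MDS3e MKT1e and 2 against MKT1e. Leaving out 1 array gave 1 to 3 in MKT1e, 2 to 3 in PMA1e MKT1e, 0 to 2 in MDS3e, 0 to 2 in MDS3e MKT1e, 1 to 2 against MDS3e, 0 to 2 against MKT1e and 3 to 6 by the F-test. The cause of the other changes was not tested. In PMA1e MKT1e against MKT1e and for the interaction limma called 0 members under every alternative.

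Replicate numbers were not shown to pair the cultures across all genotypes. Of 10 pairs of genotypes, 3 had a correlation of same-numbered deviations over 0.1, within a span from -0.20 to 0.39. These 3 joined MKT1e with Ancestral (0.39), MDS3e with Ancestral (0.24) and MKT1e with MDS3e (0.19). MDS3e MKT1e had negative correlations with every other genotype, from -0.20 to -0.14. The cause of this pattern was not tested. With a replicate block, 2 members, RAS1 and CYR1, were called in MDS3e MKT1e against Ancestral, and counts in the other comparisons moved by less than 1.5 times. A lone culture left in a genotype is assumed to vary like the others. With 2 cultures per genotype, differences well above the SE of 0.05 to 0.08 could go uncalled. CYR1 in MDS3e MKT1e, at -0.21 ± 0.08 from Ancestral (limma adjusted p = 0.0514), was such a case. A difference that did not pass is therefore not shown to be absent. Of the 11 member calls 4 were kept under all alternatives, and the share of calls kept over all genes is not given here.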
